A study of Mus musculus with 4 samples.

Results

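The genes described here are the proteasome genes of mouse liver, chosen by name alone as every gene in the deposited table whose symbol is Psm, a letter from a to g and then a digit. This rule found 49 of the 13903 genes listed. They comprised 14 genes of the core particle, 17 of the regulatory cap, the 3 inducible catalytic subunits of the immunoproteasome (Psmb8, Psmb9 and Psmb10), 4 other activators, 1 inhibitor and 7 assembly chaperones. The last 3 matches were Psma8, a core subunit of the testis, Psme2b, a near copy of Psme2, and Psmc3ip, which is named for its binding to Psmc3 and is no part of the proteasome. Psmb11, the catalytic subunit of the thymus, was not analysed here.

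All mice were OGT-floxed on the C57BL/6J background and were fed a diet labelled CDE, the usual short name of a choline-deficient, ethionine-supplemented diet that injures the liver. The groups labelled OGT-KO received AAV8-TBG-CRE and the groups labelled control received AAV8-TBG-eGFP; the TBG promoter is active in hepatocytes, so other liver cells kept the floxed gene. Livers under each label were collected either without recovery or following 7 days of recovery, and age, sex and viral dose were not given in the sources used here. Each of the 4 conditions was 1 mRNA library made from equal amounts of RNA from 3 mice, so there was no replicate of any condition, no test between conditions was possible, and every interval below covers counting error only.

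The targeted gene was examined first. Ogt stood at 64.7 CPM (reads of the gene scaled to a library total of 1000000) in the control library and 55.3 CPM in the OGT-KO-labelled library with no recovery, and at 55.7 and 77.7 CPM after 7 days. At the deposited scaling Ogt was therefore lower under the OGT-KO label with no recovery and higher after 7 days, whereas with median-ratio scaling the log2 difference was -0.93, then -0.20. The counts cover the whole gene and do not show whether the floxed part was lost. The libraries are called by their labels throughout for this reason. Alb, the main plasma protein made by hepatocytes, stood between 41362 and 54434 CPM in the 4 libraries.

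The proteasome is the main protease of the cytosol and nucleus and degrades proteins that carry ubiquitin chains. Its core particle is a barrel of stacked rings, with outer rings of alpha subunits that gate the entrance and inner rings of beta subunits, of which Psmb5, Psmb6 and Psmb7 carry the active sites. The regulatory cap sits on the barrel: ATPases of its base unfold the substrate and thread it inward, and its lid removes the ubiquitin. Under interferon the inducible subunits Psmb8, Psmb9 and Psmb10 replace Psmb5, Psmb6 and Psmb7 in newly assembled particles, forming the immunoproteasome, which is known for making peptides for MHC class I. In resting liver the standard subunits predominate, and leukocytes are richer in the inducible ones.

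Recovered reads ranged from 19972699 to 22866431 per library, and the proteasome genes took 0.334% of the reads in the control library and 0.426% in the OGT-KO-labelled library with no recovery, and 0.326% and 0.397% after 7 days. A count of 3 reads was worth 0.131 to 0.150 CPM. Comparisons were limited to the 8963 genes whose mean over the 4 libraries reached 10 CPM, which 44 of the 49 proteasome genes did. Psmd10 was below 10 CPM in both controls and passed only through the OGT-KO-labelled libraries, so its place in the counts below was partly fixed by the filter. Differences are given between values of log2(CPM + 1), on which low genes appear to change less than they did, and a gene was called at a difference of 2-fold on that scale. OGT-KO minus control, the median over all genes compared was 0.51 without recovery and 0.48 after 7 days, so an average gene stood higher under the OGT-KO label at the deposited scaling; with median-ratio scaling these medians were -0.19 and -0.18. Directions below are therefore also read against the median of all genes.

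With no recovery, 4 of the 44 proteasome genes were at least 2-fold higher in the OGT-KO-labelled library, a smaller share than the 24.4% of all genes compared, and 0 were at least 2-fold lower, against 5.69%. The 4 genes were Psmd8, Psmb9, Psmd5 and Psmd9, which belong to the lid, the immunoproteasome and the assembly chaperones. At a 1.5-fold threshold 9 were higher, against 45.5% of all genes, and 0 lower, against 10.1%. After 7 days the count was 2 higher, Psmd8 and Psmd5, against 22.9% of all genes, and 0 lower, against 4.27%, and at 1.5-fold it was 3 higher, against 43.0%, and 0 lower, against 7.52%. The 2 genes called at both times compare with 19.2% of all genes. Just under the threshold with no recovery stood Psmb8 and Psmf1, both at a log2 difference of 0.98, and above it the nearest was Psmd9 at 1.07. The difference was above 0 for 38 of the 44 genes with no recovery and 36 after 7 days at the deposited scaling, where it was above 0 for 75.6% and 78.5% of all genes; with median-ratio scaling it was above 0 for 6 and 2. A total of 35 of the 44 genes were higher in both OGT-KO-labelled libraries than in both control libraries, where 70.0% of all genes were, and 4 were lower in both, where 16.6% were.

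**Figure D1:**
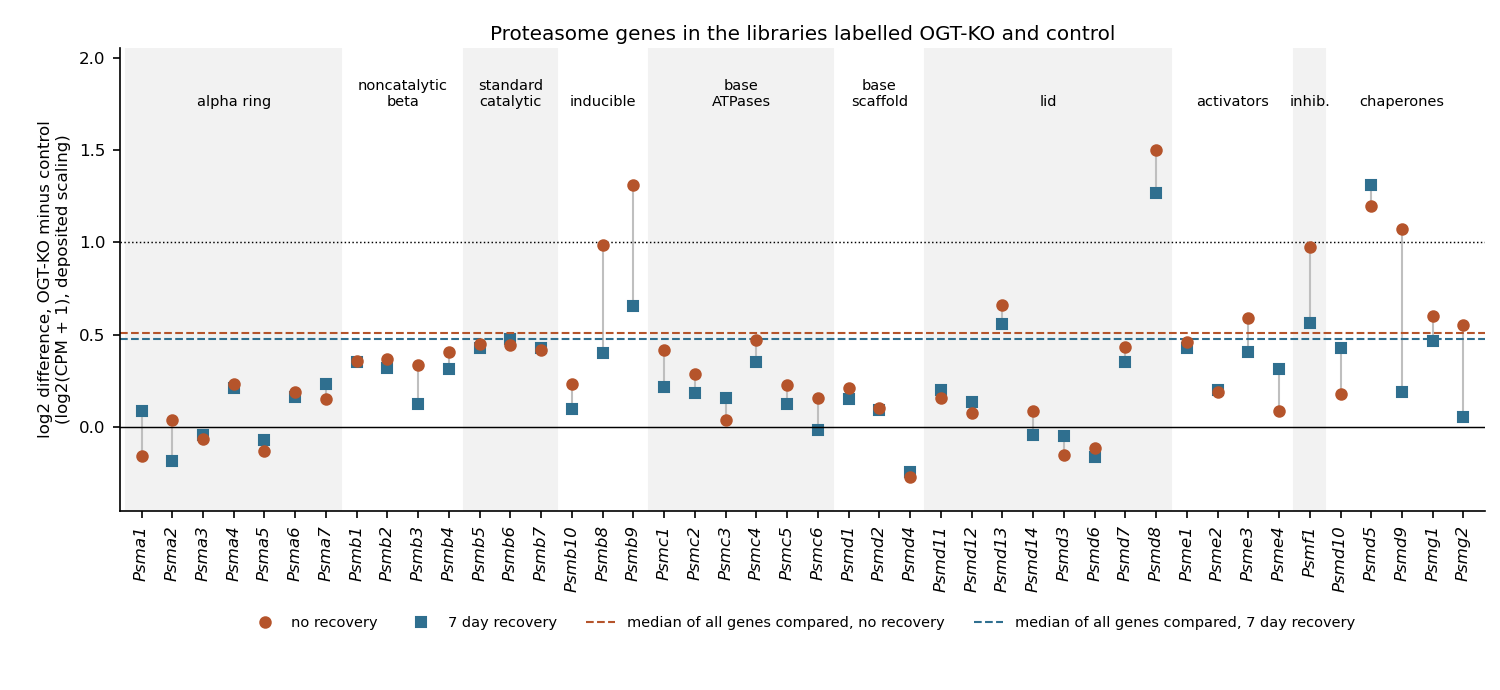
Log2 difference (OGT-KO minus control, log2(CPM + 1), deposited scaling) of the 44 proteasome genes past the filter, grouped by role, with no recovery (circles) and after 7 days (squares). The dashed lines are the medians of all 8963 genes compared (0.51 and 0.48) and the dotted line is the 2-fold threshold; the 14 core genes lie below both dashed lines, and with median-ratio scaling, which moves the dashed lines to -0.19 and -0.18, all 14 lie below 0.

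The classes differed in how far they stood from the average gene. The median log2 difference with no recovery was 0.29 over the 14 core genes, 0.16 over the 17 cap genes and 0.98 over the 3 inducible subunits. After 7 days it was 0.22, 0.15 and 0.40. All 14 core genes stood below the median of all genes at both times, as did 15 of the 17 cap genes, the exceptions being the lid genes Psmd8 and Psmd13. This position depended on the genes used for comparison: among the 3220 genes averaging 50 CPM or more, the all-gene median was 0.28 with no recovery and 7 of 13 core genes stood above it, and after 7 days it was 0.30 and 6 of 13 stood above it.

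Within the core particle the alpha ring had the smallest differences at the deposited scaling. Against the median of all genes it stood furthest below, at -0.47 without recovery and -0.39 after 7 days. The standard catalytic subunits were then nearest to that median, at -0.06 and -0.05. The median log2 difference of its 7 genes was 0.04 without recovery, then 0.09 after 7 days, and 3 of the 7 were below 0 at each time. Psma4, the alpha ring gene with the largest difference without recovery, stood at 119 CPM in the control library and 141 CPM in the OGT-KO-labelled library with no recovery, and at 116 and 135 CPM after 7 days. Psma1, the lowest in difference without recovery, stood at 71.1 and 63.7 CPM then and at 70.5 and 75.1 CPM after 7 days, so its libraries overlapped by label. With either other scaling all 7 alpha ring genes were below 0 at both times.

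The beta rings stood slightly higher and were uniform. The 4 beta subunits without an active site (Psmb1 to Psmb4) lay between 0.34 and 0.41 with no recovery and between 0.13 and 0.36 after 7 days. The extremes with no recovery were Psmb4, at 109 CPM in the control library and 145 CPM in the OGT-KO-labelled library, and Psmb3, at 62.9 and 79.6 CPM. After 7 days Psmb4 stood at 101 and 126 CPM and Psmb3 at 63.2 and 69.1 CPM. All 4 genes were higher in both OGT-KO-labelled libraries than in both controls at the deposited scaling, where 70.0% of all genes were. With upper-quartile and with median-ratio scaling they were below 0.

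The standard catalytic subunits moved together. Psmb5, the chymotrypsin-like subunit, stood at 60.0 CPM in the control library and 82.3 CPM in the OGT-KO-labelled library with no recovery, and at 54.9 and 74.4 CPM after 7 days. Psmb6, the caspase-like subunit, stood at 138 and 189 CPM, and at 123 and 172 CPM after 7 days. Psmb7, the trypsin-like subunit, stood at 93.0 and 125 CPM, and at 95.3 and 129 CPM after 7 days. In each case both OGT-KO-labelled libraries lay above both controls, where those of 70.0% of all genes did. The log2 differences fell within 0.42 to 0.45 without recovery and 0.43 to 0.48 after 7 days. With upper-quartile or median-ratio scaling all 3 turned below 0 at both times.

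Per length, Psmb6 was the highest of the 14 core genes in every library, at 154 to 236 CPM per kb of transcript, and Psma2 the lowest, at 21.0 to 23.8 CPM per kb. The 3 inducible subunits were lower per length than any standard catalytic subunit, at 10.5 to 31.6 CPM per kb against 61.1 to 236 CPM per kb over the 4 libraries. In both control libraries Psmb10 was the highest of the 3 and Psmb9 the lowest.

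The bases just before the start sites of the catalytic subunits whose results differ are shown here, so that Psmb8 and Psmb9 can be set beside the standard subunits they replace. They were read from RefSeq on GRCm38.p6 along the strand of each gene, and the deposited files use another build, GRCm39, by the submitters' processing notes. The Psmb9 stretch, chr17:34187331-34187555 on the minus strand, is the 225 bases that separate the start of Psmb9 from that of Tap1, a peptide transporter gene on the opposite strand, and its capitals mark CCAAT read on the opposite strand. The Psmb8 stretch, chr17:34198075-34198194 on the plus strand, has no capitals because neither CCAAT nor TGACNNNGC was found in it. The Psmb5 stretch, chr14:54617996-54618055 on the minus strand, and the Psmb6 stretch, chr11:70525297-70525356 on the plus strand, have in capitals a match to TGACNNNGC, the core of antioxidant response elements. The stretches differ in length, at 225 bases for Psmb9, 120 for Psmb8 and 60 for Psmb5 and for Psmb6.
Psmb9: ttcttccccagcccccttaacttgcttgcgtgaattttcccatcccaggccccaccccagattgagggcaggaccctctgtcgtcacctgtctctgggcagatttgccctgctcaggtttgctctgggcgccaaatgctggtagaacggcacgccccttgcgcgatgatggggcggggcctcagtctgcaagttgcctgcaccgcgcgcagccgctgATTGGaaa
Psmb8: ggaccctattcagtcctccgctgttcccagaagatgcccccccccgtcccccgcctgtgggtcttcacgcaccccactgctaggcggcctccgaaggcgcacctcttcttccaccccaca
Psmb5: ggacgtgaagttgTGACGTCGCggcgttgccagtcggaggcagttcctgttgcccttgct
Psmb6: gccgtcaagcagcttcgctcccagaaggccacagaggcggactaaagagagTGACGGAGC

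These letter patterns are frequent. In windows from 250 bases before to 50 bases after the start, searched on both strands, CCAAT was present in 37.4% of 32851 RefSeq windows and TGACNNNGC in 12.4%; among the windows of genes in the deposited table the shares were 37.3% and 14.1%. Of the 41 proteasome genes with a window, TGACNNNGC was found in 2 of 11 core genes, 2 of 14 cap genes and 0 of the 3 inducible genes. It was also found in 1 of 4 other activators (Psme4) and 1 of 6 assembly chaperones (Psmd9). CCAAT was found in 6 of 11 core genes, 4 of 14 cap genes and 1 of the 3 inducible genes, and in 1 of 4 other activators and 1 of 6 chaperones. Psmb8 and Psmb10 had no match to either pattern, which says only that these letters are not in their windows.

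The inducible subunits differed among themselves. With no recovery Psmb9 stood at 14.2 CPM in the control library and 36.7 CPM in the OGT-KO-labelled library, a ratio of 2.58 (95% counting interval 2.26 to 2.96), and Psmb8 at 25.5 and 51.4 CPM, a ratio of 2.02 (1.82 to 2.24). Psmb10 stood at 29.7 and 35.1 CPM, a ratio of 1.18 (1.06 to 1.32), and its log2 difference of 0.24 lay below the median of all genes. The subunits above the median of all genes were thus Psmb8 and Psmb9, which lie on either side of Tap1 on chromosome 17, and Psmb10, which lies on another chromosome, was below it.

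After 7 days the same order held with smaller differences. Psmb9 stood at 17.9 CPM in the control library and 28.8 CPM in the OGT-KO-labelled library, a ratio of 1.61 (1.41 to 1.83). Psmb8 stood at 30.3 and 40.4 CPM, a ratio of 1.33 (1.20 to 1.48). Psmb10 stood at 32.5 and 34.9 CPM, a ratio of 1.07 (0.965 to 1.19), whose counting interval includes 1. Psmb9 was the only one of the 3 above the median of all genes at this time, Psmb8 being below it at a log2 difference of 0.40. For each of the 3 genes both OGT-KO-labelled libraries were above both controls at the deposited scaling, where those of 70.0% of all genes were. With median-ratio scaling Psmb9 and Psmb8 remained above 0 with no recovery (0.62 and 0.28) but not after 7 days (0.00 and -0.26), and Psmb10 was below 0 at both times (-0.46 and -0.57).

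**Figure D2:**
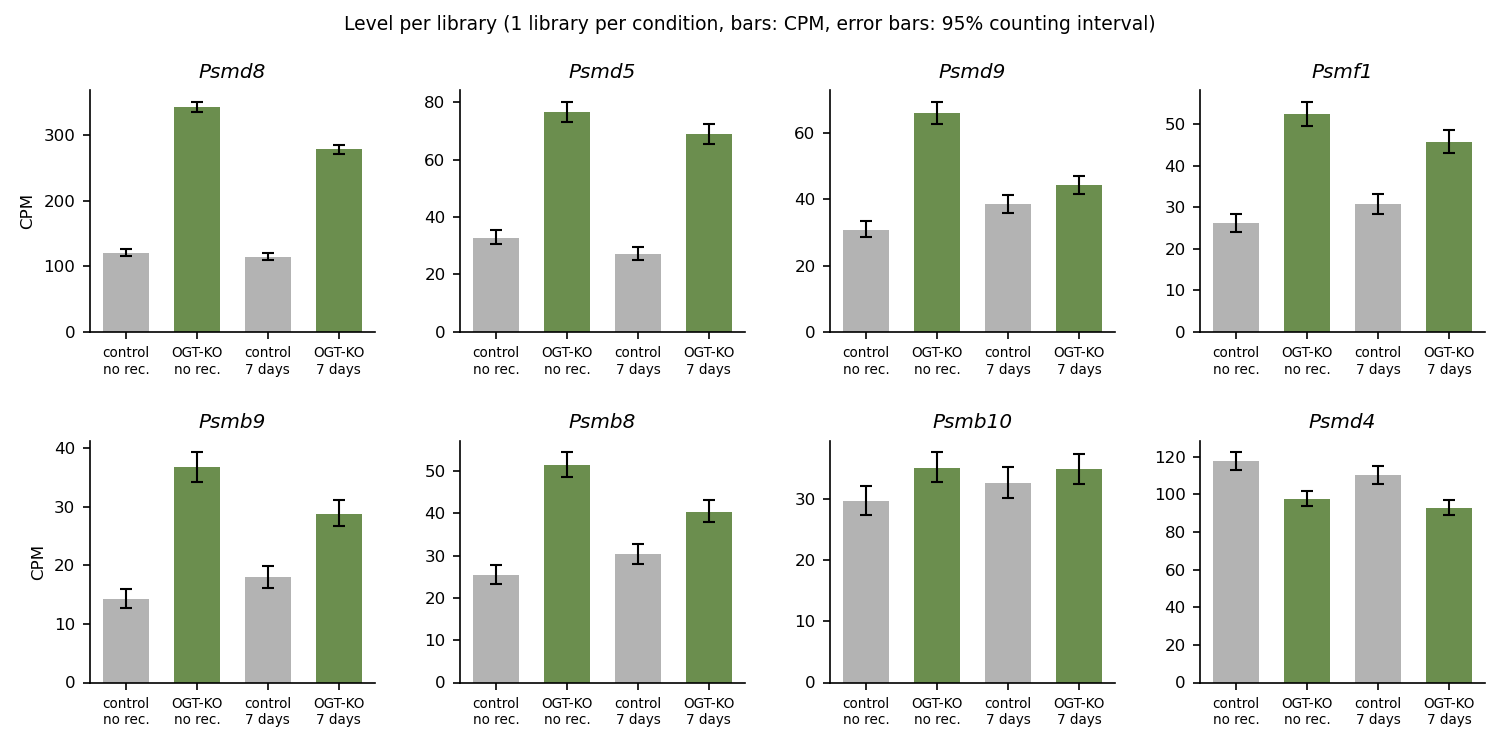
Level in CPM of 8 proteasome genes in each of the 4 libraries (bars, deposited scaling) with the 95% counting interval (error bars); each condition is 1 library. On the log2(CPM + 1) scale, Psmd8 and Psmd5 were more than 2-fold higher in the OGT-KO-labelled libraries at both times, and Psmb9 and Psmd9 with no recovery only. In the plain CPM shown, Psmb8 (ratio 2.02) and Psmf1 (2.00) also reached 2-fold with no recovery. Psmd4 was lower at both times. With median-ratio scaling Psmd8 and Psmd5 stayed higher and Psmd9 turned lower after 7 days.

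A ratio of 2 genes within a library does not depend on its scaling. The ratio of Psmb9 to Psmb6 reads rose from 0.103 in the control library (95% counting interval 0.0909 to 0.116) to 0.195 in the OGT-KO-labelled library (0.180 to 0.210) with no recovery, a log2 change of 0.92 (0.72 to 1.12). The ratio of Psmb8 to Psmb5 was 0.425 and 0.625, a log2 change of 0.56 (0.38 to 0.74). The ratio of Psmb10 to Psmb7 went the other way, from 0.319 to 0.282, a log2 change of -0.18 (-0.35 to -0.01). The exchange pairs therefore did not move as a set in these libraries. With all transcripts included, Psmb7 overlaps Nek6 by 405 bases on opposite strands in GENCODE M21. Whether the counting used strand is not stated, so counts of Psmb7 may include reads of Nek6.

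After 7 days the ratios of Psmb9 to Psmb6 were 0.146 and 0.168, with a log2 change of 0.20 (0.0043 to 0.40). Those of Psmb8 to Psmb5 were 0.551 and 0.543, with a log2 change of -0.02 (-0.21 to 0.16), an interval that includes 0. Those of Psmb10 to Psmb7 were 0.341 and 0.271, with a log2 change of -0.34 (-0.51 to -0.16). Summed per length, the 3 inducible genes made up 13.2% of the catalytic subunit transcripts in the control library and 16.4% in the OGT-KO-labelled library with no recovery, and 16.0% and 15.1% after 7 days. By this summed share the 7 day control library lay nearer to both OGT-KO-labelled libraries than to the control library with no recovery. The single pairs did not all share this. The Psmb10 to Psmb7 ratio of the 7 day control, 0.341, was nearest to the 0.319 of the control with no recovery. Its Psmb9 to Psmb6 ratio, 0.146, lay about midway between the control (0.103) and OGT-KO-labelled (0.195) libraries with no recovery.

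**Figure D3:**
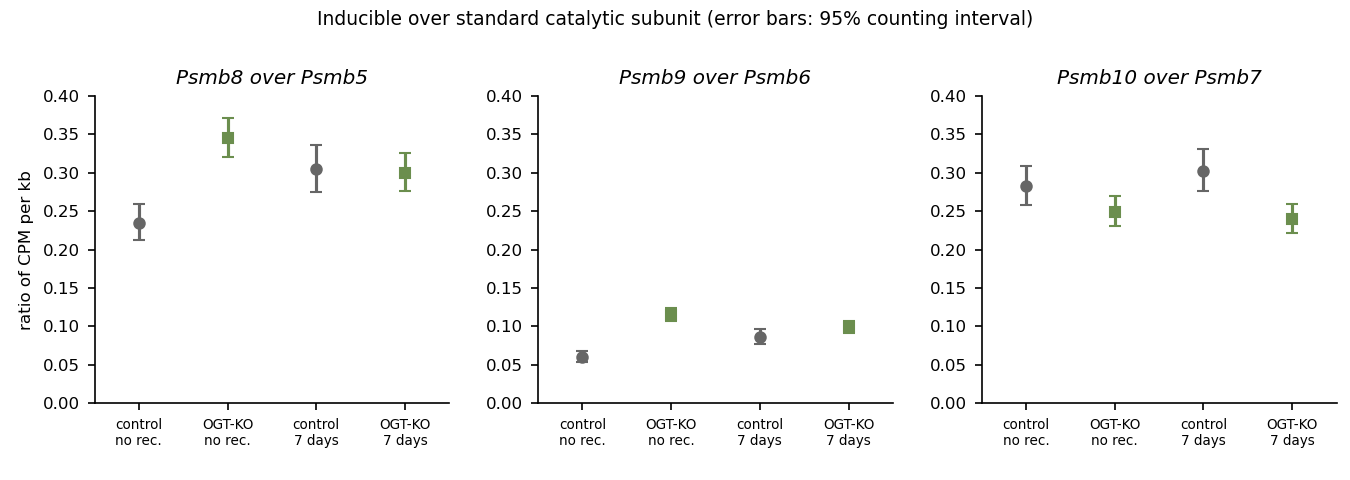
Ratio of each inducible catalytic subunit to the standard subunit it replaces, in CPM per kb of transcript, in the 4 libraries, with 95% counting intervals (error bars); each condition is 1 library. The Psmb8 and Psmb9 ratios were highest in the OGT-KO-labelled library with no recovery, and the Psmb10 ratio was lower in both OGT-KO-labelled libraries than in both controls.

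Genes that work with the immunoproteasome were read beside it. Of 9 genes of MHC class I processing and its interferon control, 4 were at least 2-fold higher in the OGT-KO-labelled library with no recovery and 1 after 7 days, where 24.4% and 22.9% of all genes were. Tap1, which shares its upstream region with Psmb9, had log2 differences of 1.44 and 0.64, close to the 1.31 and 0.66 of Psmb9. Nlrc5, the activator of class I genes, had 1.37 and 0.74, Tap2 1.06 and 0.70, and the class I gene H2-D1, which may share reads with its near-identical relatives, 1.79 and 1.26. The interferon factor Irf1 had 0.80 and 0.95. By contrast B2m, the shared light chain of class I molecules, had -0.03 and -0.29, below the median of all genes at both times. So were Tapbp (0.08 and 0.38), Erap1 (0.08 and 0.03) and H2-K1 (0.21 and -0.17). With longer transcripts included, Psmb9 and Tap1 overlap by 212 bases on opposite strands in GENCODE M21, and whether the counting used strand is not stated, so their reads cannot be fully told apart.

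Markers of other liver cells, endothelial ones aside, were mostly called higher under the OGT-KO label too, where 24.4% of all genes were with no recovery and 22.9% after 7 days. Of 10 leukocyte markers, 6 passed the filter and all 6 were called higher at both times, their summed level over the 10 ranging from 67.4 to 157 CPM in the controls and from 894 to 992 CPM in the OGT-KO-labelled libraries, with Cd8a at 0 in the 7 day control. Of 5 Kupffer cell markers, the 4 that passed were called higher at both times (65.3 to 182 CPM against 326 to 532 CPM), as were all 5 stellate markers (68.2 to 92.6 CPM against 2243 to 2867 CPM) and all 4 cholangiocyte markers (12.7 to 17.5 CPM against 171 to 212 CPM), and no marker of these 3 lists was at 0. Of the 4 endothelial markers, 1 was called higher with no recovery and 0 after 7 days. Their medians of 0.53 and 0.62 lay near those of all genes (0.51 and 0.48). They summed to 103 to 143 CPM against 165 to 224 CPM, and the 6 hepatocyte markers to 78168 to 80856 CPM against 50740 to 61550 CPM. Of these 6 hepatocyte markers, 2 (Serpina1e and Apoa2) were called lower at both times, where 5.69% and 4.27% of all genes were. Serpina1e alone went from 14115 to 448 CPM with no recovery and from 11735 to 306 CPM after 7 days, Tat was slightly higher under the OGT-KO label at both times (0.14 and 0.46), and Alb and Cps1 overlapped by label. Several markers called higher (Ptprc, Itgax, Coro1a, Des, Acta2, Krt7, Krt19 and Epcam) stood below 10 CPM in both controls. They passed the filter only through the OGT-KO-labelled libraries, so a call of higher was partly fixed by the filter. On the log2(CPM + 1) scale, only Itgam of the leukocyte and Kupffer cell markers below the filter was at least 2-fold higher at both times. Timd4 overlapped by label. That scale shrinks differences of such low genes. In plain CPM, Cd3e (ratios 3.65 and 3.16) and Cd79a (3.25 and 2.07) were also more than 2-fold higher. The 7 day counting interval of Cd79a included 1. Cd8a was higher too, but had 1 read in the control with no recovery and 0 in the 7 day control. In bulk tissue, fewer cells of a type and less RNA per cell cannot be told apart. The part of these markers in the differences of the inducible subunits and of the other proteasome genes was not tested.

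The inducible subunits and the leukocyte markers past the filter differed in their course. The median log2 difference of the 6 leukocyte markers was 2.67 without recovery, then 3.36 after 7 days, whereas that of the 3 inducible subunits was 0.98 and 0.40. In the control libraries the summed leukocyte markers went from 157 to 67.4 CPM between no recovery and 7 days, while the summed inducible subunits went from 69.4 to 80.8 CPM. In the OGT-KO-labelled libraries both sums were lower after 7 days, the leukocyte markers at 894 against 992 CPM and the inducible subunits at 104 against 123 CPM.

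**Figure D4:**
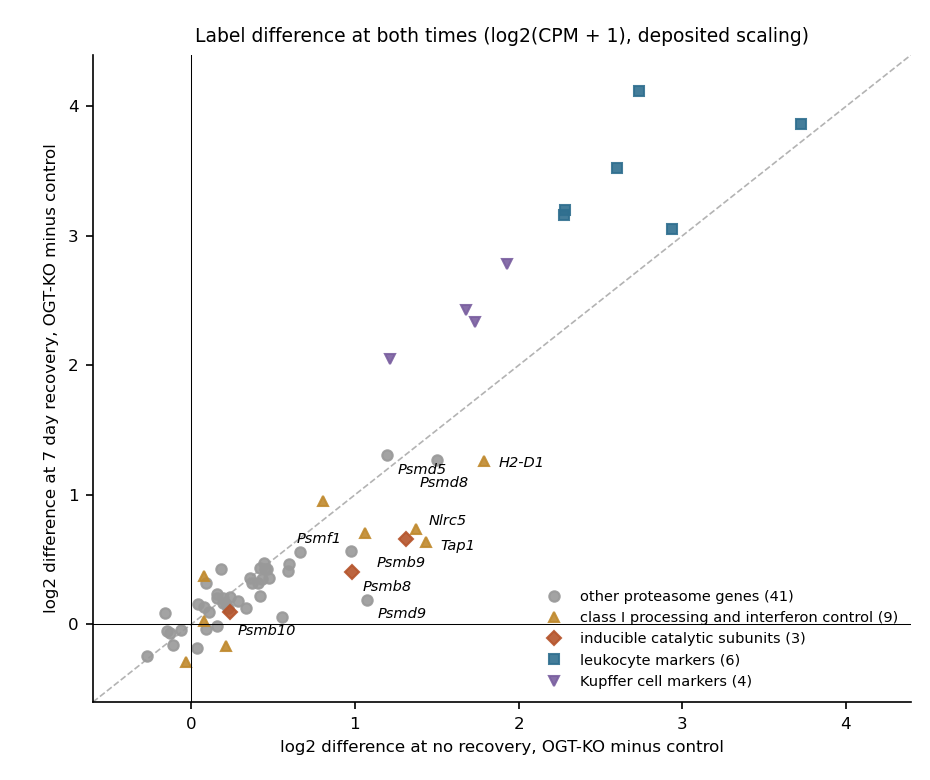
Log2 difference (OGT-KO minus control, log2(CPM + 1), deposited scaling) after 7 days (vertical axis) against that with no recovery (horizontal axis), 1 point per gene, for the 3 inducible subunits, the other 41 proteasome genes, 9 class I genes, 6 leukocyte and 4 Kupffer cell markers. The dashed line marks equal differences. Psmb8, Psmb9, Psmd9 and Psmf1 lie below it, and all leukocyte and Kupffer cell markers shown, which are those past the filter, lie above it. With median-ratio scaling Psmb8, Psmd9 and Psmf1 turn below 0 after 7 days.

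In the regulatory cap, 1 lid gene stood apart from the rest. Psmd8, a structural subunit of the lid, stood at 121 CPM in the control library and 344 CPM in the OGT-KO-labelled library with no recovery, a ratio of 2.84 (95% counting interval 2.72 to 2.97). After 7 days it stood at 115 and 278 CPM, a ratio of 2.42 (2.31 to 2.54). Per length it was the highest cap gene in both OGT-KO-labelled libraries, at 223 and 181 CPM per kb, while Psmd4 was the highest in both controls. Its log2 difference was 1.5 and 1.27 at the deposited scaling, 1.02 and 0.79 with upper-quartile scaling and 0.78 and 0.59 with median-ratio scaling.

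The other 7 lid genes ranged from -0.15 (Psmd3) to 0.66 (Psmd13) with no recovery. Psmd13 overlaps Sirt3 by 342 bases on the opposite strand. Psmd3, another structural subunit, stood at 137 CPM in the control library and 124 CPM in the OGT-KO-labelled library with no recovery, and at 125 and 121 CPM after 7 days. Psmd14, the enzyme that cuts ubiquitin from substrates, was among the genes that hardly differed, with log2 differences of 0.09 and -0.04 that turned to -0.61 and -0.71 with median-ratio scaling. Without Psmd8, the median of the remaining 16 cap genes was 0.16 without recovery, then 0.15 after 7 days.

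The 6 base ATPases had medians of 0.26 and 0.17. Psmc4 had the largest difference, at 104 CPM in the control library and 145 CPM in the OGT-KO-labelled library with no recovery, and at 101 and 129 CPM after 7 days. Psmc3 had the smallest with no recovery, at 122 and 126 CPM, and at 121 and 135 CPM after 7 days. With median-ratio scaling all 6 ATPases were below 0 at both times, as they were with upper-quartile scaling.

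Of the scaffold and receptor genes of the base, Psmd1 was the highest in difference and Psmd4 the lowest. Psmd1 stood at 82.8 CPM in the control library and 96.1 CPM in the OGT-KO-labelled library with no recovery, and at 81.2 and 90.4 CPM after 7 days. Psmd4, which binds ubiquitin chains, stood at 118 and 97.5 CPM, and at 110 and 92.9 CPM after 7 days. Psmd4 was lower in both OGT-KO-labelled libraries than in both controls, a ratio of 0.829 (95% counting interval 0.783 to 0.878) without recovery and 0.844 (0.795 to 0.897) after 7 days, and it was lower under all 3 scalings.

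The activators other than the cap were modest in difference. Psme1, which with Psme2 forms the interferon-inducible activator ring, stood at 84.0 CPM in the control library and 116 CPM in the OGT-KO-labelled library with no recovery, and at 88.9 and 120 CPM after 7 days. Psme2 stood at 57.5 and 65.9 CPM, and at 57.1 and 65.8 CPM after 7 days. Both partners stood below the median of all genes at both times, at 0.46 and 0.43 for Psme1 and at 0.19 and 0.20 for Psme2, whereas Psmb9 was above it at both times and Psmb8 with no recovery only.

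Psme3, the nuclear activator, stood at 71.9 CPM in the control library and 109 CPM in the OGT-KO-labelled library with no recovery, and at 72.1 and 96.2 CPM after 7 days. Psme4, the activator of the testis and of histone turnover, stood at 116 and 124 CPM, and at 99.2 and 124 CPM after 7 days. All 4 activators were higher in both OGT-KO-labelled libraries than in both controls at the deposited scaling, where 70.0% of all genes were. With median-ratio scaling all 4 were below 0 at both times.

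Psmf1, which binds the core particle and inhibits it in vitro, stood at 26.2 CPM in the control library and 52.4 CPM in the OGT-KO-labelled library with no recovery, a ratio of 2.00 (95% counting interval 1.81 to 2.22). After 7 days it stood at 30.7 and 45.8 CPM, a ratio of 1.49 (1.35 to 1.65). With median-ratio scaling its log2 difference was 0.28 and -0.10.

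The assembly chaperones that passed the filter (5 of 7) had a median of 0.60 with no recovery, when 2 were called higher. It was 0.43 after 7 days, when 1 was. Of all genes 24.4% and 22.9% were called higher at these times. The 7 day median was the value of Psmd10, which passed the filter only through the OGT-KO-labelled libraries. The 120 bases before the starts of Psmd8, chr7:29180674-29180793 on the minus strand of GRCm38.p6, and of Psmd5, chr2:34870963-34871082 on the minus strand, are shown because these were the 2 of 44 genes called at both times, where 19.2% of all genes were. With upper-quartile or median-ratio scaling neither was called after 7 days. The capitals mark GGGCGG, a GC box, in Psmd8 and TCTCGCGAGA, a palindrome, in Psmd5, and the latter was searched for after the Psmd5 sequence had been seen. GGGCGG is also present, in lower case, in the Psmd5 and Psmb9 stretches.
Psmd8: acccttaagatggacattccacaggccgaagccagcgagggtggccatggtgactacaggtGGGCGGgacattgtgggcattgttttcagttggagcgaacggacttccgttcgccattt
Psmd5: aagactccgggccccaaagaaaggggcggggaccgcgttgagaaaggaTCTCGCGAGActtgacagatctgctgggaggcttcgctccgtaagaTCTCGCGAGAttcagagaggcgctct

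GGGCGG was present in 35.7% of all windows, in 59.3% of those of genes in the deposited table and in 10 of 14 cap genes with a window, so Psmd8 shared it with most of them. TCTCGCGAGA was present in 0.466% of all windows, in 0.887% of those of genes in the deposited table and in Psmd5 alone among the 41 proteasome genes with one, where it occurred at 2 places, 72 and 26 bases before the start.

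Psmd5, a chaperone that holds base ATPases before the cap is joined, stood at 32.8 CPM in the control library and 76.5 CPM in the OGT-KO-labelled library with no recovery, a ratio of 2.33 (95% counting interval 2.13 to 2.55). After 7 days it stood at 27.2 and 68.9 CPM, a ratio of 2.53 (2.29 to 2.80). With Psmd8 it was the only proteasome gene past the filter above 0 at both times under all 3 scalings, at 0.49 and 0.64 with median-ratio scaling.

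Psmd9, another base chaperone, stood at 30.9 CPM in the control library and 66.2 CPM in the OGT-KO-labelled library with no recovery, a ratio of 2.14 (1.95 to 2.35). After 7 days it stood at 38.7 and 44.3 CPM, a ratio of 1.15 (1.04 to 1.26). Of the 49 genes it had the largest fall in the label difference between the times, from 1.07 to 0.19 on the log2 scale.

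Psmd10, the base chaperone also known as gankyrin, stood at 9.46 CPM in the control library and 10.8 CPM in the OGT-KO-labelled library with no recovery, and at 9.61 and 13.3 CPM after 7 days. Its difference, like that of Psmd5 and unlike that of Psmd9, was the larger after 7 days. Among the chaperones of the alpha ring, Psmg1 stood at 18.1 and 27.9 CPM, and at 17.8 and 24.9 CPM after 7 days. Its partner Psmg2 stood at 11.9 and 17.9 CPM, and at 14.0 and 14.5 CPM after 7 days.

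The second pair of alpha ring chaperones was below the filter. Psmg3 stood at 5.93 and 10.7 CPM with no recovery and at 6.46 and 9.26 CPM after 7 days. Psmg4 stood at 5.03 and 8.35 CPM, and at 5.26 and 6.56 CPM after 7 days. All 7 chaperones were higher in both OGT-KO-labelled libraries than in both controls at the deposited scaling, where 70.0% of all genes compared were. With median-ratio scaling Psmg1, Psmg2 and Psmd10 were below 0 at both times, and Psmd9, Psmg3 and Psmg4 after 7 days only.

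The remaining 3 genes below the filter were near the floor or outside the complex. Psma8 stood at 0.753 CPM in the control library and 0.875 CPM in the OGT-KO-labelled library with no recovery, and at 0.501 and 1.20 CPM after 7 days. Psme2b ranged from 1.05 to 1.79 CPM, and reads of it and Psme2 may be shared. Psmc3ip ranged from 6.63 to 11.6 CPM.

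Over recovery the proteasome genes changed little. None of the 44 was called between the times under either label, where 0.245% of all genes were called higher and 0.960% lower in the control libraries and 1.04% higher and 0.435% lower in the OGT-KO-labelled libraries. The differences, 7 days minus no recovery, ran from -0.26 (Psmd5) to 0.32 (Psmb9) in the control libraries and from -0.57 (Psmd9) to 0.27 (Psmd10) in the OGT-KO-labelled libraries. These comparisons use the same 4 libraries as those between the labels and are no separate evidence.

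Psmb9, Psmd9, Psmb8 and Psmf1 are given in both pairs of libraries because their counting intervals lay on opposite sides of 1 under the 2 labels, as those of no other proteasome gene past the filter did. In the control libraries they differed by 0.32, 0.31, 0.24 and 0.22 on the log2 scale. In the OGT-KO-labelled libraries they differed by -0.34, -0.57, -0.34 and -0.19. Both signs were the same for these 4 genes with upper-quartile and median-ratio scaling. A total of 16 of the 44 genes had opposite signs under the 2 labels when the intervals were left aside. The label difference was nearer to 0 after 7 days for 32 of the 44 proteasome genes (72.7%), and for 55.1% of all genes compared. Across the 44 genes the differences at the 2 times had a Pearson correlation of 0.83, against 0.94 across all 8963 genes; this describes genes of the same 4 libraries, which are not independent replicates.

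Outside the name pattern, 6 further parts and partners of the cap (Adrm1, Sem1, Uchl5, Usp14, Ube3c and Ecpas) had 0 genes called at either time and medians of 0.40 and 0.35. Of 5 genes of proteasome assembly and transcription, 0 were called at either time, and their medians were 0.16 and 0.02. Of all genes, 24.4% were called higher and 5.69% lower with no recovery and 22.9% and 4.27% after 7 days, with medians of 0.51 and 0.48. Nfe2l1, the factor that raises proteasome genes when the proteasome is inhibited, had log2 differences of 0.16 and 0.36, and Ddi2, the protease that activates it, had -0.49 and -0.46. Nfe2l1 was below the median of all genes at both times, as were the core genes.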

How the data were processed

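Liver RNA from 3 mice per condition was pooled and sequenced as 4 mRNA libraries. The authors deposited a single table of CPM values for 13903 genes; each column sums to 1000000. The submitters' processing notes name STAR, GRCm39 and DESeq2, without versions; the counter, the use of strand and the filter are not given in the sources used here. The values were whole multiples of 1 read (100.0% within 0.01 reads), so whole reads were recovered. All columns were used.

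The genes and lists were chosen with earlier results of these data known, and 2 listed pathway genes are not reported here. CPM values were compared as log2(CPM + 1) where the mean over libraries reached 10 CPM, and called at 2-fold. With 1 library per condition no count model or test between conditions was run, and a difference has no replicate check. Exact (Clopper-Pearson) 95% intervals on recovered reads, and the limit of 3 reads, cover counting error only, since reads were not counted as molecules. Genes named were both sets of catalytic subunits, the activators, the inhibitor, the chaperones, the extremes of each other class with no recovery and any gene called; Psmd13, Psmd14 and the pathway genes named were chosen after their values were seen. Lengths are the longest APPRIS principal transcripts of GENCODE M21 (GRCm38). Promoter windows were from RefSeq (GRCm38.p6). The scripts were tested on simulated data. Alternatives were a pseudocount of 0.1 or 10, upper-quartile and median-ratio (DESeq2 size factor) scaling, no filter or a mean of 50 CPM, a 1.5-fold threshold and an exact binomial test on reads with Benjamini-Hochberg adjustment. Python 3.11.15, numpy 2.4.6, pandas 2.3.3, scipy 1.17.1 and matplotlib 3.10.9 were used.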

Additional observations from a re-analysis of the deposited data

Results flagged for a closer look

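The following differences were singled out because the direction was opposite in the groups compared and both 95% counting intervals excluded a ratio of 1; none of them could be tested, since each condition is 1 library. Over recovery, 7 days minus no recovery, 16 of the 44 proteasome genes had opposite signs under the 2 labels. Of these, 4 met the limit on the intervals, and they were higher after 7 days in the control libraries and lower in the OGT-KO-labelled libraries. The change under the OGT-KO label minus that in the controls, on the log2 scale, was -0.88 for Psmd9, -0.65 for Psmb9, -0.58 for Psmb8 and -0.41 for Psmf1. The opposite signs were also present with upper-quartile and median-ratio scaling.

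Between the labels, 4 of the 44 proteasome genes and 5 of 35 other listed genes past the filter had opposite signs with no recovery and after 7 days at the deposited scaling. Of these, 0 proteasome genes and 2 other genes met the limit on the intervals. The 7 day difference minus that with no recovery was 0.70 for Ogt and -0.38 for the class I gene H2-K1. With upper-quartile or median-ratio scaling both genes were below 0 at both times, so their signs were no longer opposite.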

How the results depend on the processing

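No paired analysis was possible because each condition has 1 library. Of the summary values, 89 stayed close to the reported ones over the alternatives and 21 moved. Of the values of single genes 580 stayed close and 204 moved. A count was close within 1.5-fold, and a difference if it moved by less than its counting error. Many of the 89 were counts of genes called lower, or called over recovery, which were 0 in every setting and could hardly move. The count of proteasome genes called higher with no recovery (4) was 6 with a pseudocount of 0.1, which added Psmb8 and Psmf1. It was 2 with a pseudocount of 10 or a mean of 50 CPM and 9 with a 1.5-fold threshold. With upper-quartile scaling it was 1 (Psmd8) and with median-ratio scaling 0. After 7 days the count (2) was 0 with either scaling. With upper-quartile and median-ratio scaling the core median was -0.19 and -0.43 with no recovery and -0.26 and -0.46 after 7 days, the cap median -0.31 and -0.55, then -0.33 and -0.52, and the median of the inducible subunits 0.52 and 0.28, then -0.068 and -0.26, so the core and cap medians changed sign at both times and that of the inducible subunits after 7 days. A pseudocount of 10 gave 0.79 for the inducible subunits and 0.53 for the change of the Psmb9 to Psmb6 ratio with no recovery. No inducible subunit reached a mean of 50 CPM. Of all genes, 24.4% were called higher and 5.69% lower with no recovery, against 10.4% and 15.4% with median-ratio scaling, and after 7 days 22.9% and 4.27%, against 11.6% and 11.8%. The exact binomial test on reads, which compares libraries and not conditions, kept the same 4 and 2 genes. The absence of replicates limits every comparison.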

Other observations

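Of 14 genes that supply ubiquitin or deliver substrates to the proteasome, 13 passed the filter and 2 were at least 2-fold higher under the OGT-KO label at each time, where 24.4% and 22.9% of all genes were. Zfand2a, a proteasome-binding protein induced by stress, stood at 15.0 CPM in the control library and 46.0 CPM in the OGT-KO-labelled library with no recovery, and at 11.2 and 26.1 CPM after 7 days. Zfand5, which stimulates the proteasome in muscle wasting, stood at 36.2 and 83.1 CPM, and at 32.4 and 75.9 CPM after 7 days. Vcp, the segregase that extracts ubiquitinated proteins, had log2 differences of -0.14 and 0.03, and the median of the 13 genes was 0.47, then 0.45, below the medians of all genes (0.51 and 0.48).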
